A study of Mus musculus with 12 samples.

Results

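Chemokines are small secreted proteins that guide leukocytes along concentration gradients, and neutrophils both respond to them and make them. The transcripts described here were those of 9 chemokine genes that neutrophils are known to make, namely Cxcl1, Cxcl2, Cxcl3, Ccl3, Ccl4, Ccl6, Ccl9, Cxcl10 and Cxcl16. They were taken from the count table by gene symbol, as 9 of its 29737 genes, and 9 of 9 passed the filter on low counts with 16761 genes in all. Cxcl1, Cxcl2 and Cxcl3 bind CXCR2, the receptor through which neutrophils themselves are recruited. Ccl3, Ccl6 and Ccl9 bind CCR1, and these proteins and Ccl4 call in monocytes and other leukocytes. Cxcl10, a classical interferon target, binds CXCR3 on T and NK cells, and Cxcl16 is a membrane-anchored ligand of CXCR6. Several of the genes, such as Cxcl1, Cxcl2 and Ccl3, are low in resting cells and are switched on by NF-kB after stimulation, and their mRNAs are short-lived.

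The samples were bone marrow neutrophils of wild-type (WT) mice, selected as Ly6G-positive cells with magnetic beads and cultured in medium with 10% fetal bovine serum for 24 h. Each of the 4 groups had 3 samples: PBS as the control (replicates 3, 5 and 6), TCA at 200 μM, Tβ-MCA at 10 μM and GCA at 200 μM (replicates 3, 4 and 5 each). TCA (taurocholic acid) and GCA (glycocholic acid) are cholic acid conjugated with taurine and with glycine, and Tβ-MCA (tauro-β-muricholic acid) is a muricholic acid conjugated with taurine. The doses are those of the labels. The study's methods give a higher dose for Tβ-MCA, the same as that of the other acids, and name a different isolation of the cells, so neither the dose of Tβ-MCA nor the selection is certain. Strain and age of the mice were not given in the labels, and neither these nor the methods say whether samples came from separate animals. The study describes its experiments as biologically independent without tying the samples to animals, so p-values measure the spread between these samples, which may in part be technical.

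Total counts lay between 32757389 and 41375925 per sample, and a count of 3, the least treated as detected, was 0.0725 to 0.0916 CPM (counts scaled to the library size and by TMM); this limit covers counting error only. All 9 chemokine genes were above it in all 12 samples. The 13 neutrophil markers were detected in every sample, with Csf3r, the G-CSF receptor, at 851 to 1105 CPM and Ly6g at 7.53 to 21.4 CPM. The 14 monocyte and macrophage markers were also detected in every sample, and their summed level was 1037 to 1064 CPM with PBS, 927 to 1108 with TCA, 743 to 1027 with GCA, and 290, 349 and 812 in Tβ-MCA replicates 3, 4 and 5. Tβ-MCA replicate 5 thus stood apart from the other samples of its group, so the tests of the 9 genes and the counts of genes passing in each list are also given without it. It was also the Tβ-MCA sample nearest to PBS in this sum. Leaving it out therefore tilts the tests towards a larger difference from PBS. Results without it show the dependence on this sample and are no independent support. In the comparison of Tβ-MCA with PBS, 745 genes were higher and 533 lower at an adjusted p under 0.05 (edgeR's quasi-likelihood test), against 1013 and 395 with scaling by total counts alone.

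The genes lie in clusters. Cxcl3 (chr5:90786103-90789600), Cxcl1 (chr5:90891241-90893115) and Cxcl2 (chr5:90903871-90905938) lie on the plus strand in GRCm38, with 101.6 kb between Cxcl3 and Cxcl1 and 10.8 kb between Cxcl1 and Cxcl2. Ccl9 (chr11:83572919-83578636), Ccl6 (chr11:83587882-83593087) and Ccl3 (chr11:83647844-83649355) lie on the minus strand, with Ccl4 (chr11:83662584-83664683) on the plus strand beside them, and 9.25 kb separate Ccl6 and Ccl9. Cxcl10 (chr5:92346638-92348889) and Cxcl16 (chr11:70453983-70459984) lie apart from these clusters on the minus strand. Exons of Cxcl10 overlap those of Art3, and exons of Cxcl16 overlap those of Zmynd15, in both cases on the opposite strand. Library preparation was stranded, but whether the counting used the strand was not stated. Art3 had 0 to 8 counts and Zmynd15 59 to 167 counts per sample, so reads on these exons may be assigned to either gene.

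The regions just upstream of the starts show how the clusters resemble each other. RefSeq promoters of GRCm38.p6, 250 bases before the start, were matched for 7 of the 9 genes, and those of Ccl4 and Cxcl16 were not shown. Motifs were searched on both strands. The NF-kB motif GGAATTTCC was found in 0.292% of 27025 promoters, and among the 7 in those of Cxcl1, Cxcl2, Cxcl3 and Cxcl10. It began at base -70 in Cxcl1, -96 in Cxcl2 and -72 in Cxcl3, counted from the start. The promoters of Cxcl1, Cxcl2 and Cxcl3 also held the TATA-like run ATAAAAGG, which 1.69% of promoters hold. The upstream bases are printed here because the 3 genes share these runs and a receptor, with both motifs in capitals.

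Cxcl1 (chr5:90891125-90891240, plus strand): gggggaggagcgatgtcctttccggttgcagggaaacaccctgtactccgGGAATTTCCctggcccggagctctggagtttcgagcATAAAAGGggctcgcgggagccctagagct

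Cxcl2 (chr5:90903779-90903870, plus strand): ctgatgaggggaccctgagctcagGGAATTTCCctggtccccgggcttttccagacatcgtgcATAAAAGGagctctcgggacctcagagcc

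Cxcl3 (chr5:90785981-90786100, plus strand): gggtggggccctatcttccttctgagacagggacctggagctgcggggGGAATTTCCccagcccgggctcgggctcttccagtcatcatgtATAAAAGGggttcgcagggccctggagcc

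Each of these begins 120 bases before the RefSeq start and ends before the earliest annotated start of the gene. The longest run shared by Cxcl1 and Cxcl2 within 250 bases was 14 bases, and it held the NF-kB motif. The promoters of the neighbours Ccl6 and Ccl9 shared a run of 13 bases, which held the ETS motif GGAAGTG on the opposite strand. This motif, which myeloid ETS factors such as PU.1 can bind, was found in 8.64% of promoters and is in capitals below, as is the ATAAAAGG run of Ccl9.

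Ccl6 (chr11:83593088-83593207, minus strand): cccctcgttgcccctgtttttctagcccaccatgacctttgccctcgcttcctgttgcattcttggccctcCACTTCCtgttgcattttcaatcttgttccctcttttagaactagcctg

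Ccl9 (chr11:83578637-83578756, minus strand): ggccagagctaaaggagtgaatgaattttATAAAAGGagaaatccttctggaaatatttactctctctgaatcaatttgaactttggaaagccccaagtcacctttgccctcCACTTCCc

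Cxcl10, the one gene of the 9 with a log2 fold change above 0 with Tβ-MCA, which did not pass the test, held a further NF-kB motif, GGACTTCCC, which was found in 0.322% of promoters, and the AP-1 motif TGANTCA, found in 6.87% and also in Ccl9. Its GGAATTTCC match and the interferon motif GAAANNGAA, found in 7.16% of promoters and also in Ccl3, lay further upstream, outside the bases printed. The GGACTTCCC and TGANTCA matches are in capitals.

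Cxcl10 (chr5:92348890-92349009, minus strand): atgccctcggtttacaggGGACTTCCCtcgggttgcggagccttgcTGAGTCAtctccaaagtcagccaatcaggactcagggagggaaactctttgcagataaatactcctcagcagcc

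The wider NF-kB pattern GGNNTTTCC, which covers GGAATTTCC, was in 4.84% of promoters and in those of Cxcl1, Cxcl2, Cxcl3, Ccl9 and Cxcl10. A match describes the letters only, and binding was not measured in these samples.

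Without bile acid, Ccl3 and Ccl6 dominated. In RPKM, the deposited unit per kilobase of exon, the level of Ccl3 with PBS was 128 ± 15.4 (SD, n = 3) and that of Ccl6 was 118 ± 29.1 (SD, n = 3), and these ranges overlapped. Both lay at about the 97th percentile of the genes tested (97.4 and 97.2). Cxcl2 followed at 26.7 ± 6.86 RPKM and Ccl9 at a mean of 13.3 RPKM. Below these were Ccl4 at 5.49, Cxcl16 at 3.43 and Cxcl1 at 0.530 RPKM, each apart from its neighbours in the PBS samples. Cxcl3 at 0.296 and Cxcl10 at 0.140 RPKM were the lowest, and their ranges overlapped. The order thus spanned highly expressed genes and genes with few counts, since Cxcl1 had 10 to 42 counts per sample, Cxcl3 4 to 66 and Cxcl10 6 to 24. All 12 counts of Cxcl1 and of Cxcl10 were even, and 70.5% of all counts from 1 to 50 in the table were even, while whether mates of a read pair were counted separately was not stated. Ccl3 and Ccl6 together made up 72.9% to 74.3% of the counts of the 9 genes with PBS. Over all 12 samples the share was 71.7% to 80.7%, and it was highest with Tβ-MCA (75.7% to 80.7%).

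**Figure D1:**
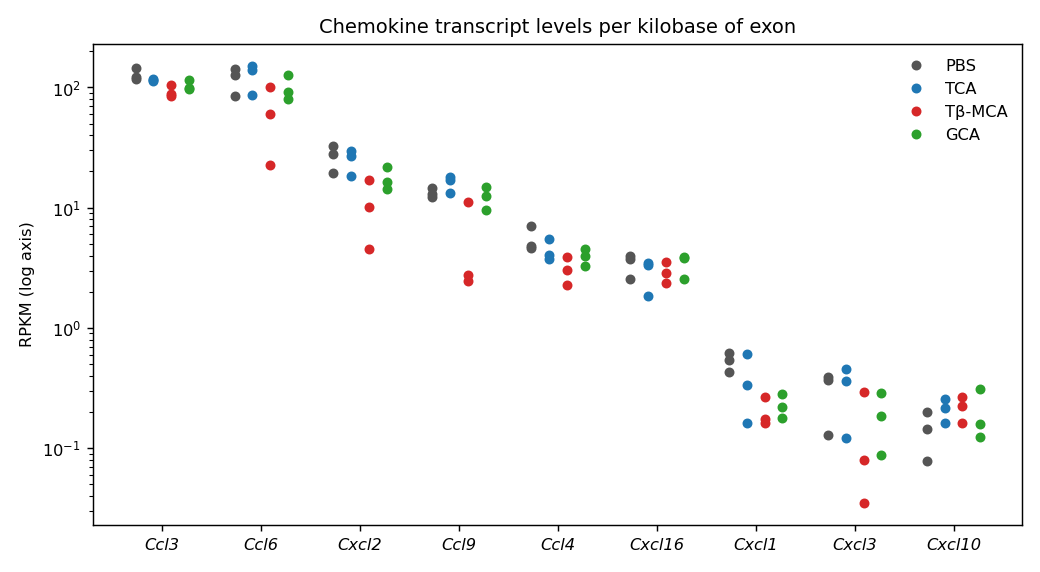
RPKM (log axis) of the 9 chemokine genes in order of their mean level with PBS, with 1 point per sample and 3 samples per group. Ccl3 and Ccl6 lie highest, and Cxcl1, Cxcl3 and Cxcl10 lie below the other genes in every sample.

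Transcripts of part of the set were lower with Tβ-MCA. Of the 9 genes, 3 fell at an adjusted p under 0.05 (Cxcl1, Ccl3 and Ccl4) and 0 rose, while 3.18% of all genes tested fell and 4.44% rose. The values of 5 genes (Cxcl1, Cxcl2, Ccl3, Ccl4 and Ccl9) did not overlap between Tβ-MCA and PBS, all lower with Tβ-MCA, which held for 12.8% of all genes tested. The log2 fold change was below 0 for 8 of 9 genes, with a median of -0.995 over the 9 and of 0.0041 over all genes tested. At the study's thresholds (a fold of 2 with unadjusted p under 0.05), 3 genes were lower (Cxcl1, Cxcl2 and Ccl9), against 1.86% of all genes; with Tβ-MCA replicate 5 removed they were 5 (Cxcl1, Cxcl2, Cxcl3, Ccl6 and Ccl9), against 3.95%. Leaving out Tβ-MCA replicate 5 gave 5 genes that fell at an adjusted p under 0.05 (Cxcl2, Cxcl3, Ccl3, Ccl4 and Ccl9), against 9.44% of all genes that fell and 8.52% that rose. Without PBS replicate 6 the count was 1, while 64 of all 17124 genes tested fell and 104 rose. Without PBS replicate 3, PBS replicate 5, Tβ-MCA replicate 3 or Tβ-MCA replicate 4 the count was 0. With only the PBS and Tβ-MCA samples in the model it was also 0. In each of these settings with a count of 0, 0 genes of the whole table were called in either direction. The loss of calls was thus not particular to the chemokine genes.

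**Figure D2:**
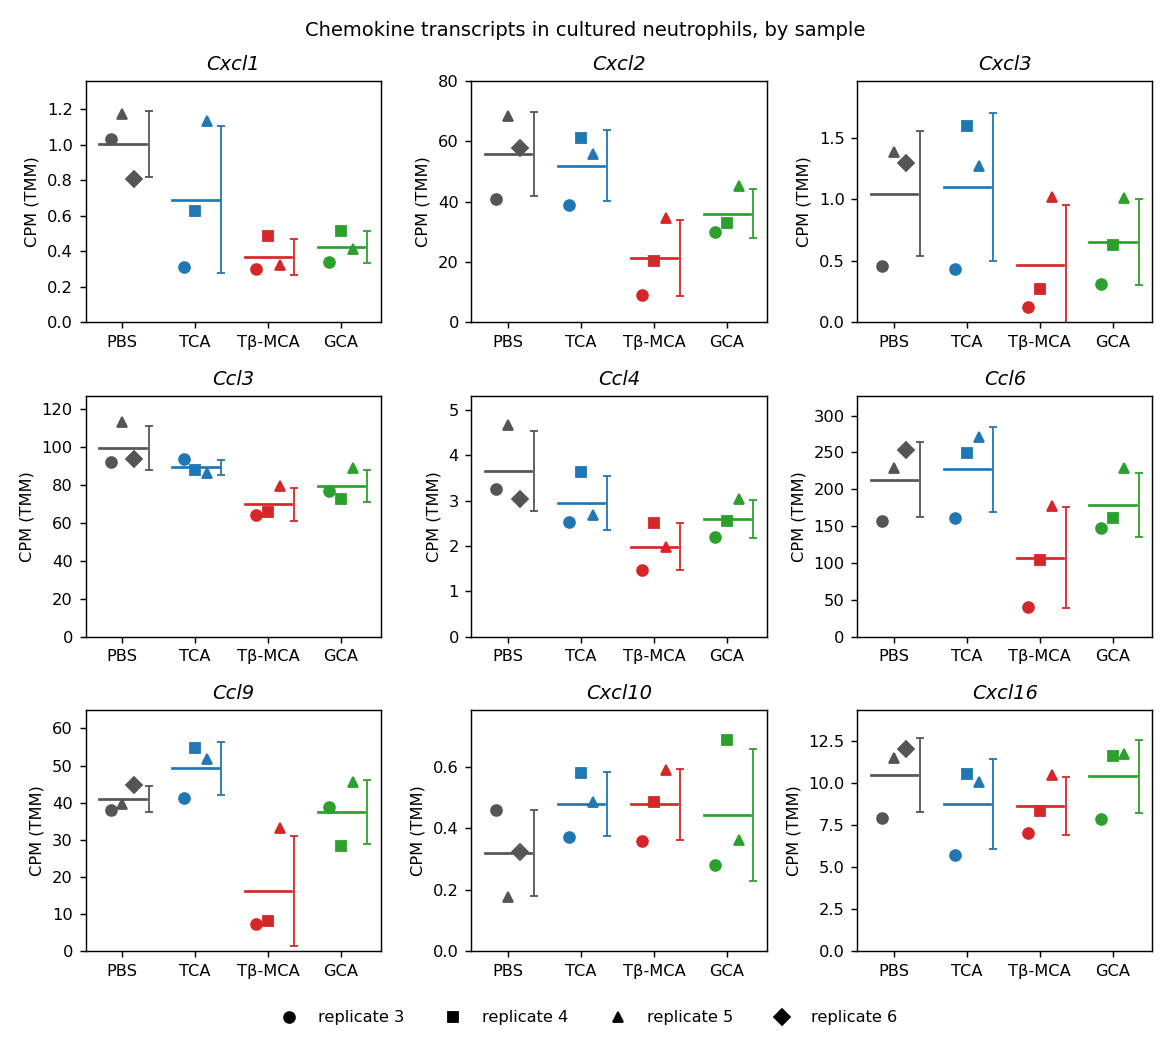
CPM (TMM-scaled) of each chemokine gene in each sample, with linear axes from 0. Symbols mark the replicate number, horizontal lines the mean and bars at the side the SD (n = 3; drawn down to 0 at most); in Cxcl2, Ccl6 and Ccl9, Tβ-MCA replicate 5 lies above replicates 3 and 4.

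Among the CXCR2 ligands, Cxcl1 was at 1.03, 1.18 and 0.809 CPM with PBS (replicates 3, 5 and 6, in this order throughout), and with Tβ-MCA its level was 0.299, 0.486 and 0.321 CPM (replicates 3, 4 and 5). All Tβ-MCA samples were below all PBS samples, and the fall was -1.43 ± 0.42 (log2, SE), with an adjusted p of 0.0484 (edgeR, as for the adjusted p values that follow). The adjusted p was 0.0676 without Tβ-MCA replicate 5 and 0.0441 with counts halved, and it ranged from 0.00808 to 0.180 over 12 alternatives, with 4 of them under 0.05. Cxcl2, the most abundant CXCR2 ligand here, was at 40.9, 68.6 and 57.8 CPM with PBS and at 9.12, 20.2 and 34.6 CPM with Tβ-MCA. The groups did not overlap, but the Tβ-MCA samples spread widely, and the log2 fold change of -1.39 ± 0.44 (SE) had an adjusted p of 0.0932. Leaving out Tβ-MCA replicate 5 gave -1.92, with an adjusted p of 0.0148. Cxcl3 was at 0.459, 1.38 and 1.29 CPM with PBS and at 0.120, 0.270 and 1.02 CPM with Tβ-MCA. These groups overlapped, since PBS replicate 3 lay below Tβ-MCA replicate 5, and the log2 fold change was -1.13 ± 0.71 (SE; adjusted p = 0.354). Leaving out Tβ-MCA replicate 5 gave -2.39 (adjusted p = 0.0388), although the lowest sample held 4 counts. Of the other 3 listed CXCR2 ligands, only Ppbp passed the filter, with a log2 fold change of -1.09 ± 0.71 (SE; adjusted p = 0.366), and -0.996 (adjusted p = 0.449) in the model without Tβ-MCA replicate 5; it was named after its values were seen.

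Ccl3 and Ccl4, neighbouring genes whose products are the macrophage inflammatory proteins, had tighter values. Ccl3 was at 92.0, 112.8 and 93.5 CPM with PBS and at 63.9, 65.5 and 79.6 CPM with Tβ-MCA. The groups did not overlap, and the fall was small but exceeded the spread, at -0.51 ± 0.10 (log2, SE; adjusted p = 0.0208). Ccl4 was at 3.27, 4.68 and 3.05 CPM with PBS and at 1.47, 2.51 and 1.98 CPM with Tβ-MCA. Its fall was -0.88 ± 0.23 (log2, SE; adjusted p = 0.0358). Both calls held without Tβ-MCA replicate 5 (adjusted p of 0.000586 for Ccl3 and 0.0349 for Ccl4). Both were lost without Tβ-MCA replicate 3 or 4, or without PBS replicate 3 or 5, as were all calls of the whole table. The call of Ccl4 was also lost without PBS replicate 6.

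The neighbours Ccl6 and Ccl9, CCR1 ligands found in rodents, had their lowest values in 2 of the 3 Tβ-MCA samples. Ccl6 was at 156.5, 229.2 and 253.9 CPM with PBS and at 39.97, 103.7 and 176.9 CPM with Tβ-MCA. Tβ-MCA replicate 5 lay above PBS replicate 3, and the log2 fold change of -0.995 ± 0.49 (SE) had an adjusted p of 0.248. Ccl9 was at 38.1, 39.8 and 44.9 CPM with PBS and at 7.36, 8.10 and 33.2 CPM with Tβ-MCA. Here replicates 3 and 4 were far below every other sample of the study, and replicate 5 was only just below PBS, so the log2 fold change of -1.33 ± 0.53 (SE) had an adjusted p of 0.161. Without replicate 5 the log2 fold change of Ccl9 was -2.40 (adjusted p = 4.32e-05) and that of Ccl6 was -1.57 (adjusted p = 0.0568). Since replicate 5 was the Tβ-MCA sample nearest to PBS in both genes, leaving it out enlarges the fall by construction.

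Cxcl10 and Cxcl16, which attract T cells, did not pass the test. Cxcl10 was at 0.459, 0.177 and 0.323 CPM with PBS and at 0.359, 0.486 and 0.589 CPM with Tβ-MCA, which overlapped. It was the one gene of the 9 with a positive log2 fold change, 0.58 ± 0.45 (SE; adjusted p = 0.460). Cxcl16 was at 7.94, 11.5 and 11.99 CPM with PBS and at 7.06, 8.34 and 10.5 CPM with Tβ-MCA, a log2 fold change of -0.28 ± 0.25 (SE; adjusted p = 0.533). In the model without Tβ-MCA replicate 5 these values were 0.40 (adjusted p = 0.661) for Cxcl10 and -0.44 (adjusted p = 0.311) for Cxcl16. Summed over the 9 genes, the level was 340.7, 469.3 and 467.6 CPM with PBS and 129.6, 209.6 and 338.7 CPM with Tβ-MCA, so the highest Tβ-MCA sample was just below the lowest PBS sample.

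**Figure D3:**
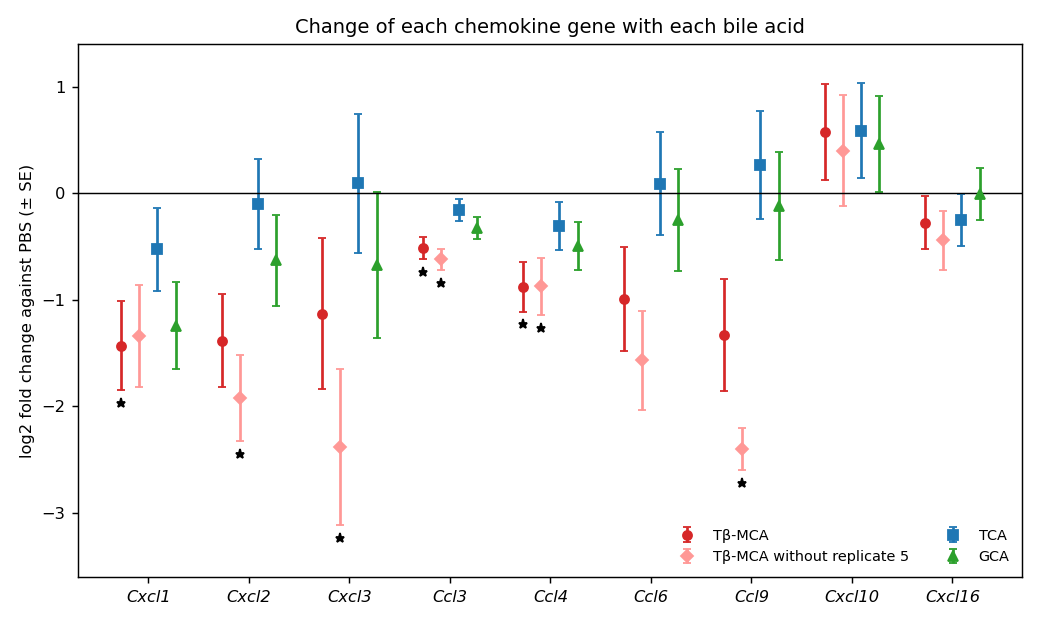
Log2 fold change against PBS (y axis, ± SE from edgeR) of each chemokine gene for Tβ-MCA, Tβ-MCA without replicate 5, TCA and GCA; stars mark an adjusted p under 0.05. Stars appear with Tβ-MCA alone, at Cxcl1, Ccl3 and Ccl4 with all samples and at Cxcl2, Cxcl3, Ccl3, Ccl4 and Ccl9 without replicate 5.

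Markers of monocytes and macrophages were also lower with Tβ-MCA. All 14 monocyte and macrophage markers had a log2 fold change below 0 with Tβ-MCA, with a median of -0.85, and 1 of them fell at an adjusted p under 0.05 (Siglec1, a macrophage sialic acid receptor, at -1.72, adjusted p = 0.0441). Without Tβ-MCA replicate 5, 10 of 14 fell and the median was -1.29. As a share of the PBS mean, their summed level was 27.7%, 33.3% and 77.5% in Tβ-MCA replicates 3, 4 and 5, while Ccl9 was at 17.97%, 19.8% and 81.2%. In GCA replicate 4, the lowest sample of its group in both, the marker sum was at 71.0% and Ccl9 at 69.5%. In these samples Ccl9 was thus low where this marker sum was low. This was not particular to the monocyte and macrophage list. Of the neutrophil markers, Mpo ranged from 194.4 to 209.3 CPM with PBS and Elane from 21.79 to 27.76 CPM. Tβ-MCA replicate 3 had 32.32 CPM of Mpo and 2.721 CPM of Elane, and replicate 4 had 44.45 and 5.938 CPM. Tβ-MCA replicate 5 had 154.2 and 19.18 CPM, and GCA replicate 4 had 130.8 and 17.43 CPM. The neutrophil marker sum fell less, to 80.04%, 73.25% and 83.64% (Tβ-MCA replicates 3 to 5). The part of either list in the result was not tested. In bulk RNA, fewer cells of a type and less RNA per cell cannot be told apart.

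At an unadjusted p under 0.05, 12.3% of all genes were lower and 12.6% higher with Tβ-MCA, the background for the unadjusted counts that follow. Of 13 neutrophil markers, 12 had a log2 fold change below 0 with Tβ-MCA, with a median of -0.63. In edgeR 11 were lower at an unadjusted p under 0.05, and 4 fell at an adjusted p under 0.05. These were Ly6g (-0.99, adjusted p = 0.0208), S100a8 (-0.30, adjusted p = 0.0402), Camp (-1.14, adjusted p = 0.0417) and Mmp9 (-0.63, adjusted p = 0.0481), as log2 fold changes. Without Tβ-MCA replicate 5, 10 of 13 fell. The summed level of the neutrophil markers was 48140 to 59560 CPM with PBS and 38420 to 43870 with Tβ-MCA. S100a9 and Ngp made up most of this sum, so markers with deeper falls, such as Mpo and Elane, weigh little in it. Csf3r, the only one of them not below 0, had a log2 fold change of 0.05 (adjusted p = 0.768). Eosinophil markers summed to 137.5 to 240.7 CPM with PBS and to 54.1 to 124 with Tβ-MCA. Of these 5 markers, 2 were lower at an unadjusted p under 0.05, and Siglecf alone fell at an adjusted p under 0.05 (log2 -0.93, adjusted p = 0.0326). Of 5 B cell markers, 2 were lower at an unadjusted p under 0.05, and Cd79a alone fell at an adjusted p under 0.05 (log2 -0.81, adjusted p = 0.0326). Their sum was at most 12.5 CPM in any sample. No marker of T and NK cells (5 tested, 1 at an unadjusted p under 0.05), basophils and mast cells (5 tested, 1), dendritic cells (4 tested, 0) or erythroid cells (3 tested, 0) passed the adjusted test in edgeR. The model without Tβ-MCA replicate 5 also called Nkg7 of the T and NK cell markers and Prg2 of the eosinophil markers, both lower. Xcr1, a dendritic cell marker, was at 0 in 7 samples. The part of any of these cells in the chemokine values was not tested.

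**Figure D4:**
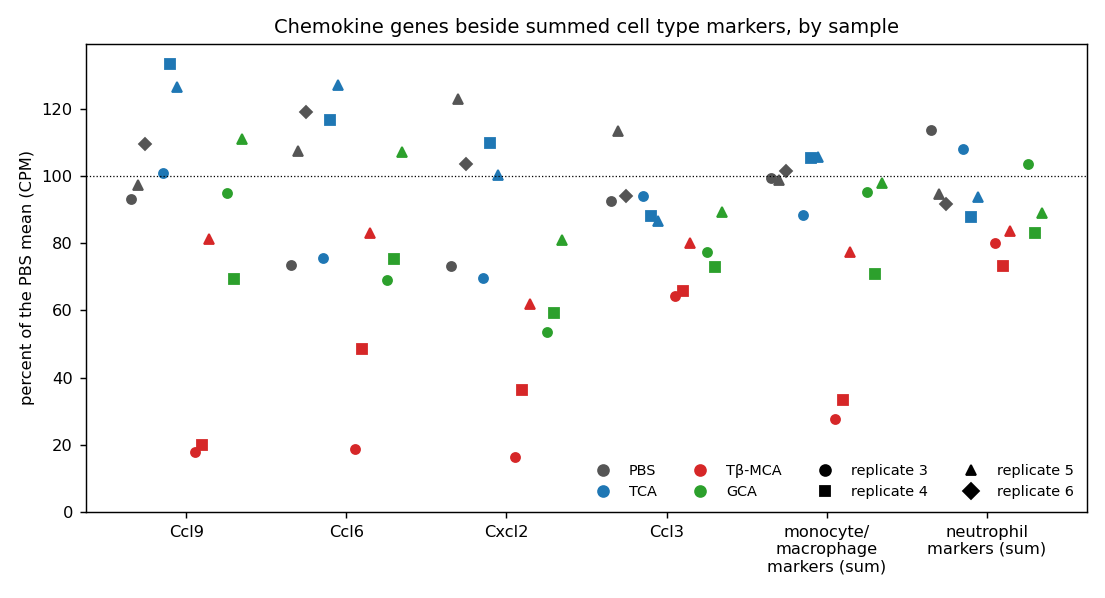
CPM of Ccl9, Ccl6, Cxcl2 and Ccl3 and summed CPM of 14 monocyte and macrophage and 13 neutrophil markers in each sample, as percent of the PBS mean (y axis; colours are groups and symbols replicate numbers). Tβ-MCA replicates 3 and 4 are lowest for Ccl9 (17.97% and 19.8%) and for the monocyte and macrophage markers (27.7% and 33.3%). With PBS, F13a1 is the largest part of the monocyte and macrophage sum, and S100a9 and Ngp make up most of the neutrophil sum.

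TCA left no detectable difference in these genes. In edgeR, 0 of 9 passed the adjusted test and 0 of 9 had an unadjusted p under 0.05, and DESeq2 also called 0. Over all genes edgeR called 0 (0% higher and 0% lower), with 1.49% higher and 1.77% lower at an unadjusted p under 0.05, and DESeq2 called 1. All 9 genes overlapped between TCA and PBS, while 4.91% of all genes were higher and 4.76% lower without overlap, so 0 of 9 is near the background. Cxcl2 was at 38.9, 61.2 and 55.9 CPM with TCA, close to its PBS values, and its log2 fold change was -0.10 with a 95% interval from -1.07 to 0.87. Ccl3 was at 93.6, 87.8 and 86.1 CPM, a log2 fold change of -0.16 (interval from -0.37 to 0.06). Cxcl1 was at 0.310, 0.628 and 1.14 CPM, the widest spread of its 4 groups.

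Ccl6 with TCA was at 161.1, 248.8 and 271.0 CPM and Ccl9 at 41.3, 54.7 and 51.7 CPM, both overlapping PBS. The interval for Ccl9 ran from -0.89 to 1.43 around 0.27. Ccl4 (2.54 to 3.62 CPM), Cxcl3 (0.434 to 1.59), Cxcl10 (0.372 to 0.580) and Cxcl16 (5.70 to 10.5) had log2 fold changes of -0.31, 0.09, 0.59 and -0.25.

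With GCA no gene passed the adjusted test, and 3 lay below PBS in every sample. In edgeR 0 of 9 genes had an adjusted p under 0.05 (0% of all genes, and 0 with DESeq2). Cxcl1, Ccl3 and Ccl4 had an unadjusted p under 0.05, all lower, which 1.78% of all genes did; the adjusted p was 0.999 for each. The same 3 genes did not overlap PBS, as 4.83% of all genes did in this direction. At the study's thresholds Cxcl1 alone was lower, against 0.316% of all genes. Cxcl1 was at 0.338, 0.515 and 0.415 CPM with GCA, a log2 fold change of -1.24 ± 0.41 (SE; unadjusted p = 0.00824 in edgeR). Ccl3 was at 76.9, 72.5 and 88.8 CPM (-0.32 ± 0.10; unadjusted p = 0.0058) and Ccl4 at 2.20, 2.55 and 3.03 CPM (-0.50 ± 0.23; unadjusted p = 0.0466). The comparisons of GCA and of Tβ-MCA with PBS share their control samples, so the recurrence of these genes is not independent.

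The other 6 genes overlapped PBS. Cxcl2 was at 29.8, 33.1 and 45.2 CPM with GCA, with only replicate 5 inside the PBS range, and its log2 fold change was -0.63 ± 0.43 (SE). Ccl6 was at 147.0, 160.8 and 228.8 CPM and Ccl9 at 38.9, 28.4 and 45.5 CPM, with log2 fold changes of -0.25 and -0.12. Cxcl3 (0.310 to 1.01 CPM), Cxcl10 (0.282 to 0.687) and Cxcl16 (7.88 to 11.7) had log2 fold changes of -0.67, 0.46 and -0.01. Over the 9 genes the median was -0.32 with GCA and -0.10 with TCA.

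GCA and TCA, which differ in the conjugated amino acid, were compared at 200 μM and 24 h. Of 9 differences, 0 passed the adjusted test and 0 had an unadjusted p under 0.05 in edgeR, and DESeq2 called 0; every adjusted p in edgeR was 0.9998. At an unadjusted p under 0.05, 1.28% of all genes were higher and 1.18% lower. All 9 genes overlapped, and 3.82% of all genes were higher and 4.19% lower without overlap. The log2 difference, GCA over TCA, was -0.72 for Cxcl1 with a 95% interval from -1.61 to 0.17, and -0.53 for Cxcl2 from -1.51 to 0.44. For Ccl3 it was -0.17 from -0.38 to 0.05, the narrowest interval. For Ccl4 it was -0.19 from -0.68 to 0.30, and for Cxcl3 -0.76 from -2.24 to 0.71. Ccl6 had -0.34 from -1.45 to 0.76 and Ccl9 -0.39 from -1.55 to 0.78. Cxcl10 had -0.13 from -1.04 to 0.79, and Cxcl16 0.24 from -0.30 to 0.78. The intervals of Cxcl1, Cxcl2, Cxcl3, Ccl6, Ccl9 and Cxcl10 reach below -1 on the log2 scale, so a level 2-fold lower with GCA lies within them. Tβ-MCA was labelled with another dose, so it was not tested against the other acids.

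Of 24 listed receptor genes 14 were tested, and with Tβ-MCA 1 fell and 1 rose, a count close to the share of all genes (3.18% lower and 4.44% higher). Ccr1, the receptor of Ccl3, Ccl6 and Ccl9, fell (80.5 ± 2.59 to 48.3 ± 15.1 CPM, SD, n = 3; log2 -0.74, adjusted p = 0.0354). Cxcr3, the receptor of Cxcl10, rose (5.32 ± 1.69 to 9.13 ± 1.72 CPM; log2 0.78, adjusted p = 0.0496). Cxcr2, the receptor of Cxcl1, Cxcl2 and Cxcl3, was at 417.8 ± 25.7 CPM with PBS and 335.9 ± 50.3 with Tβ-MCA (log2 -0.31, adjusted p = 0.0618). Without Tβ-MCA replicate 5, Ccr1, Ccr2, Cx3cr1 and Cxcr2 fell and Cxcr3 rose. Ccr2 and Cx3cr1 are also on the list of monocyte markers, and Cxcr2 on that of neutrophil markers. Among 29 other ligands, 7 were tested and 0 passed the adjusted test in edgeR, with 1 higher and 1 lower at an unadjusted p under 0.05; leaving out Tβ-MCA replicate 5 gave 1 higher and 3 lower of 8 at an adjusted p under 0.05.

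Against 3.18% lower and 4.44% higher of all genes, 2 of 13 NF-kB factors and inhibitors fell with Tβ-MCA and 0 rose. They were Nfkbiz (64.8 ± 1.56 to 50.1 ± 5.51 CPM; log2 -0.37, adjusted p = 0.0266) and Nfkbia (418.6 ± 12.8 to 348.4 ± 13.9 CPM; log2 -0.26, adjusted p = 0.0347). Nfkbia encodes the inhibitor that NF-kB induces as feedback, and Nfkbiz a nuclear cofactor. In this list 2 genes were higher and 3 lower at an unadjusted p under 0.05 in edgeR. The part of these factors in the chemokine values was not tested. Of 8 factors that control decay of chemokine mRNAs, 0 passed the adjusted test in edgeR and 4 were lower at an unadjusted p under 0.05. Of 8 tested inflammatory cytokine genes 0 passed and 4 were lower at an unadjusted p under 0.05, and Il1b was at 43.8 ± 11.1 CPM with PBS and 16.9 ± 9.47 with Tβ-MCA (log2 -1.37, adjusted p = 0.121). Without Tβ-MCA replicate 5 the adjusted p of Il1b was 0.0306. Of 15 interferon targets 2 rose, Gbp2 (5.26 ± 1.04 to 11.2 ± 3.08 CPM; log2 1.08, adjusted p = 0.0253) and Ifit1 (log2 0.74, adjusted p = 0.0429), and 0 fell. In the interferon list 5 genes were higher and 2 lower at an unadjusted p under 0.05 in edgeR. The median over the interferon list was -0.10, below 0. The model without Tβ-MCA replicate 5 called 2 NF-kB genes higher and 3 lower, 2 decay factors lower, and 5 interferon targets higher. Over all genes this model called 8.52% higher and 9.44% lower. With TCA and with GCA 0 genes of any of these lists passed the adjusted test in edgeR; at an unadjusted p under 0.05, 2 NF-kB genes were lower with TCA, and 1 NF-kB gene and Ppbp were lower with GCA.

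The samples also differed by replicate number. For 4 of the 9 genes (Cxcl2, Cxcl3, Ccl6 and Cxcl16), replicate 3 was the lowest sample in all 4 groups, which was so for 8.31% of all genes tested. The labels do not say what the number stands for. Across the 12 samples, Cxcl2 and Ccl6 were the pair of the 9 whose log2 CPM were most alike (Pearson's r = 0.971), although they lie on different chromosomes. The 12 samples differed in treatment, replicate number and monocyte marker level, and what lies behind such correlations was not tested. The tested genes most like each chemokine gene over the 12 samples were Bcl2l15 for Cxcl2 (r = 0.992), Msr1 for Ccl9 (0.994), 4732465J04Rik for Ccl6 (0.994) and Wwc2 for Cxcl3 (0.969). They were Dst for Cxcl16 (0.980), 1700120B22Rik for Ccl3 (0.955), Gm42658 for Ccl4 (0.937), 2700062C07Rik for Cxcl1 (0.934) and Gm5786 for Cxcl10 (0.882). Second to these came Gm15987 (0.981), Arhgef37 (0.989), 4933407L21Rik (0.990) and Sbf2 (0.969) for Cxcl2, Ccl9, Ccl6 and Cxcl3, and Slc25a4 (0.961), Ptpn6 (0.951), Ssr2 (0.912), Tmem183a (0.895) and Zfp959 (0.872) for Cxcl16, Ccl3, Ccl4, Cxcl1 and Cxcl10.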

How the data were processed

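mRNA of cultured mouse neutrophils was sequenced with a stranded library kit. The submitters' processing notes name Trimmomatic 0.36, STAR 2.5.3a, featureCounts of Subread 1.5.1 and GRCm38 (mm10). The authors deposited raw counts per gene and RPKM values per gene, which are these counts scaled by exon length and library. Counts were tested with edgeR 4.0.16 (R 4.3.3; TMM, filterByExpr, robust quasi-likelihood, all 12 samples in 1 model with group as the term, Benjamini-Hochberg adjustment over all genes tested), and the script was tested on simulated data. Log2 CPM used a prior count of 2. RPKM values served only to compare levels between genes. DESeq2 1.42.0 was an alternative, and the other alternatives are named with their effects in the closing section. Figures used Python 3.11.15 and matplotlib 3.10.9. The members and gene lists were chosen with earlier results of these data known. Genes named are the 9 members, up to 4 genes per list with the lowest p at an adjusted p under 0.05 against PBS, and the 2 genes most correlated with each member. Others are named for contrast, after their values were seen. Total counts were 32757389 to 41375925 per sample, which sets the counting precision. Protein sequences were not used here. The low-count values are limited by depth, and intervals are 95% intervals from edgeR's model. Some genes of the lists are not reported here.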

Additional observations from a re-analysis of the deposited data

Results flagged for a closer look

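The estimates for Ccl9 had opposite signs with 2 of the bile acids. Every Tβ-MCA sample (7.36, 8.10 and 33.2 CPM) was below the PBS mean, with a log2 fold change of -1.33 ± 0.53 (SE), and every TCA sample (41.3, 54.7 and 51.7 CPM) was above it, with a log2 fold change of 0.27 ± 0.51 (SE). The difference between the acids was not tested, since the labels give them different doses. Neither change passed the adjusted test with all samples in the model, and the TCA samples overlapped PBS.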

How the results depend on the processing

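The number of chemokine genes called with Tβ-MCA, 3 of 9, was 7 with no filter on low counts. With no filter, 1298 of 29737 genes were lower and 1108 higher. The number was 0 with only the 2 groups compared, and from 0 to 5 when each replicate was left out in turn. Wherever it was 0, 0 genes of the whole table were called. With GCA against PBS the number was 0, and 1 with no filter (23 lower and 13 higher over all genes) or at a fold of 2 with unadjusted p. For GCA against TCA it was 0, and 2 with no filter (24 lower and 18 higher over all genes). Why the filter moved these counts was not tested. DESeq2 called Cxcl2, Ccl3 and Ccl4 lower with Tβ-MCA and gave no adjusted p for Cxcl1. It called more genes than edgeR over the whole table, with 1042 lower and 1061 higher of 16761. Fold changes near 0 reversed. With replicates left out in turn, TCA against PBS ranged from -0.28 to 0.076 for Cxcl2, from -0.28 to 0.46 for Cxcl3 and from -0.091 to 0.29 for Ccl6. GCA against PBS ranged from -0.28 to 0.045 for Ccl9 and from -0.17 to 0.15 for Cxcl16, and GCA against TCA from -0.58 to 0.11 for Cxcl10. With scaling by total counts Cxcl16 was at 0.0047 with GCA, and Cxcl1 was not called with Tβ-MCA. With the replicate number as a block, GCA against PBS was 0.049 for Ccl9 and 0.022 for Cxcl16, and no call at an adjusted p under 0.05 changed among the 9 genes; over all genes 771 were higher and 727 lower with Tβ-MCA. At a fold of 2 with unadjusted p, the block gave 5 lower genes with Tβ-MCA (Cxcl1, Cxcl2, Cxcl3, Ccl4 and Ccl6) in place of 3, without Ccl9. Over all genes 1.71% were lower by this rule with the block. At an unadjusted p under 0.05 in edgeR Ccl4 was lower with TCA, as were 3.05% of all genes. For GCA against TCA Ccl3 was lower and Cxcl16 higher, against 2.07% lower and 2.21% higher of all genes. In the lists the block did not call Ccr1 or Cxcr3 with Tβ-MCA and called 2 receptors lower, Cxcr2 among them. It called 1 NF-kB gene higher and 3 lower, 4 interferon targets higher and 1 lower, and 6 neutrophil markers lower. Camp, Mmp9, Siglec1 and Cd79a, called in the main model, were not called with the block. Csf1r, Il1rn, Prss34 and Ccr3 were called lower and Cd2 higher with the block alone. Deviations from the group means correlated at 0.0597 to 0.326 between same-numbered samples, with a mean of 0.189, against a mean of -0.0716 between differently numbered ones. The pairs of replicate 3 were at 0.197 to 0.326. All same-numbered pairs were above 0. Deviations from a group mean add up to 0 within the group, so the values of the other pairs are tied to those of the same-numbered ones. These correlations thus cannot settle whether the numbers mark pairs. The main model did not treat the numbers as pairs, and the block is given as the alternative. Every sample correlated best with its own number between Tβ-MCA and GCA, and not in the other pairs of groups. Halving the counts, chosen after seeing the data, changed no call among the 9 genes, and called Rel higher in the NF-kB list. Requiring 10 counts or more throughout left 3 genes called with Tβ-MCA, with 594 lower and 748 higher of 14409 genes in all. Of the fold changes of single genes, 438 kept direction and call, 19 lost the call, 11 gained it and 17 reversed. Depth limits Cxcl1, Cxcl3 and Cxcl10, with at most 66 counts in a sample.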
